A study of Homo sapiens with 4 samples.

Results

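The UGT1A locus and 9 further genes of the response to foreign compounds (xenobiotics) were described in RNA-seq libraries of 2 human colon cell lines, with and without sturgeon chondroitin sulfate (SCS). The 10 genes were UGT1A1, which stands for the locus, CYP1A1, CYP1B1, CYP3A5, AHR, TIPARP, NR1I2, ABCB1, ABCG2 and ABCC3, and 9 of them, NR1I2 being the exception, were among the 18650 loci above 0 in at least 1 library. They were chosen by name, with the fall of UGT1A in HT-29 cells after SCS and the difference between the lines already known from these data, so their values are a description and their counts support nothing. SCS is a sulfated polysaccharide prepared from sturgeon. HT-29 is a human colorectal adenocarcinoma line, and NCM460 is a line used as normal colon cells. The 4 groups were HT-29 control, HT-29 cells kept for 24 h with 100 μg/mL SCS, NCM460 control, and NCM460 cells kept for 24 h with 100 μg/mL SCS. The labels give all groups the same fetal bovine serum and antibiotics, while the study's methods name more serum for NCM460 and antibiotics for the cancer lines, which cannot be told apart from the line. The controls are marked with a dose of 0 in the deposited columns, and no vehicle given in place of SCS is named in the sources used here. There was 1 library per group, so no difference below has a replicate check and no test between groups was made.

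The deposited table gave each gene scaled fragments and FPKM, which divides fragments by transcript length and library size. Whole fragments were recovered from the scaled counts. The HT-29 control held 1654764 of them and HT-29 with SCS 1605372, while the NCM460 control held 1347854 and NCM460 with SCS 1156568. Genes of the mitochondrial genome took 35.8%, 13.8%, 62.3% and 46.3% of these fragments in the same order, which left 1061700, 1383424, 507692 and 621582 nuclear fragments. The NCM460 libraries therefore resolve less. The limit that a count of 0 allows, 3 fragments, was 1.47, 1.25, 3.85 and 2.77 CPM, that is, fragments per 1000000 of the library after scaling by TMM factors. Intervals are at 95% and cover counting error only.

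Cells handle foreign compounds with receptors that sense them, enzymes that oxidise them, enzymes that attach a polar group, and pumps that export the product. AHR, the aryl hydrocarbon receptor, binds planar aromatic ligands, pairs with ARNT and switches on CYP1A1, CYP1B1 and TIPARP, and TIPARP in turn restrains AHR. NR1I2, the pregnane X receptor (PXR), acts in the same way on CYP3A genes, ABCB1 and UGT1A genes in liver and gut. UGT1A enzymes attach glucuronic acid to bilirubin, hormones, drugs and dietary phenols, and ABCB1, ABCG2 and ABCC3 are ATP-driven exporters.

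The UGT1A locus joins 9 genes on chromosome 2, each with a first exon of its own spliced to 4 exons that all 9 share. In the deposited table UGT1A1, UGT1A3, UGT1A4, UGT1A5, UGT1A6, UGT1A7, UGT1A8, UGT1A9 and UGT1A10 carry identical values, so the locus has 1 measurement and the first exon in use cannot be told apart. UGT1A1 (ENSG00000241635) lies on GRCh38 from 233760248 to 233773299 on the plus strand. In GENCODE release 29 the shared exons make up between 59.7% (UGT1A6) and 63.4% (UGT1A7) of the bases of a transcript. The distance from the end of the first exon to exon 2 runs from 5.88 kb in UGT1A1 to 148.5 kb in UGT1A8. Exon 2, which is shown because fragments from it belong to all 9 genes alike, is 132 bases long and has 1 sequence in the 9 transcripts, at chr2:233767034-233767165 on the plus strand of GRCh38.
UGT1A exon 2: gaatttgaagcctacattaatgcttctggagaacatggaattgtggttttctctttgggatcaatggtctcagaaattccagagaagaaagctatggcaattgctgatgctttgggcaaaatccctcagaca

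**Figure D1:**
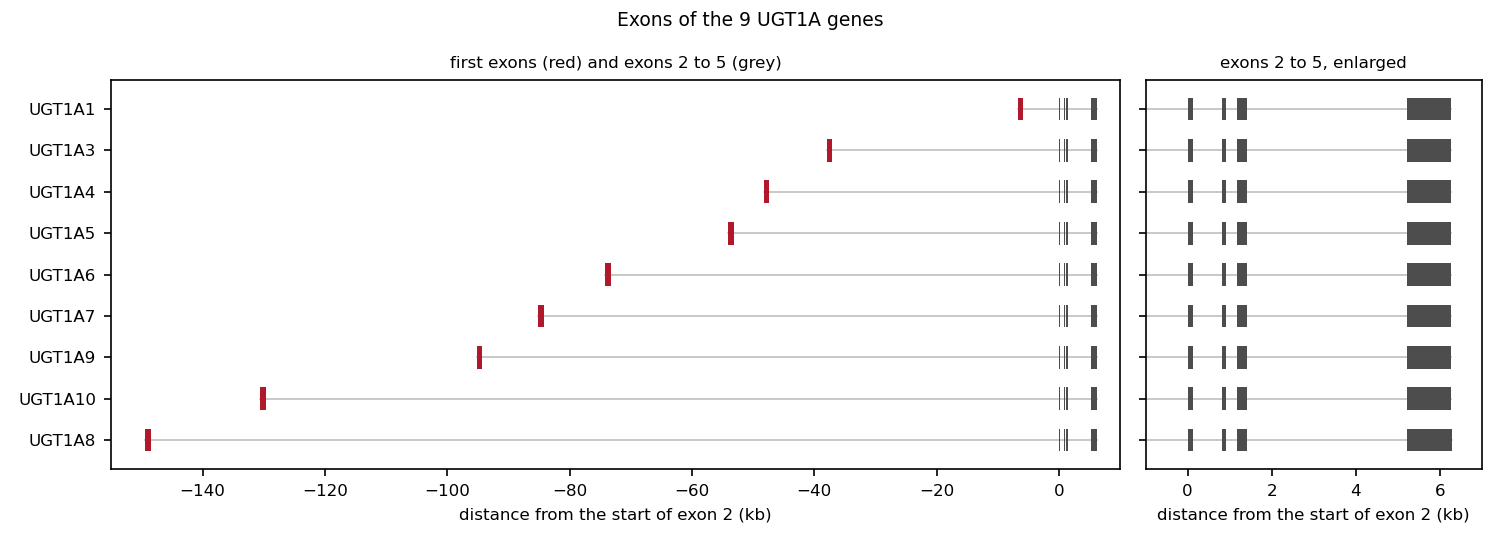
Exons of the 9 UGT1A genes by distance in kb from the start of exon 2, with 1 row per gene, first exons in red and exons 2 to 5 in grey. The first exons lie apart while exons 2 to 5 line up in all 9 genes.

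RefSeq promoter windows on GRCh38.p14, from 250 bases before to 50 bases after a transcript start, were matched by symbol. Of the 10 genes 8 had at least 1 window, while CYP1B1 and ABCC3 had none. Of the 9 UGT1A genes 8 had a window, and UGT1A10 had none. The letters GCGTG, the core of the element that AHR binds, were searched on both strands and stood in 13 of 24 windows (54.2%), against 36.5% of 35116 promoters. Windows of 1 gene can overlap, as those of ABCG2 do, and are then not separate. The longer form TNGCGTG, which contains GCGTG, stood in 1 of 24 windows (4.17%), against 5.51% of all promoters. It lay in a window of UGT1A6, chr2:233691452-233691751 on the plus strand, with its first base at position -202. The letters TGACNNNGC of the antioxidant response element were found in 3 of 24 windows (12.5%), against 13.4% of all promoters. A match describes letters and is not a binding site. The windows of UGT1A6, of UGT1A1 (chr2:233760020-233760319, plus strand) and of TIPARP (chr3:156674340-156674639, plus strand) are shown beside each other, as an AHR target gene and genes of the locus, with GCGTG or its reverse complement in capitals. For UGT1A6 and TIPARP the window with these letters is the one shown. The other UGT1A6 window, chr2:233692640-233692939, which holds the start of the first exon described above, had no GCGTG, and nor did the other 2 TIPARP windows.
UGT1A6: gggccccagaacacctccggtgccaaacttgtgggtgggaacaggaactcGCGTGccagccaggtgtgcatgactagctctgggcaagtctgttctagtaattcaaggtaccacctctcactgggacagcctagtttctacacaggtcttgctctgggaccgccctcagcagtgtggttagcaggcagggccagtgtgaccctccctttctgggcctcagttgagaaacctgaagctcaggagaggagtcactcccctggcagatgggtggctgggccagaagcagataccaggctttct
UGT1A1: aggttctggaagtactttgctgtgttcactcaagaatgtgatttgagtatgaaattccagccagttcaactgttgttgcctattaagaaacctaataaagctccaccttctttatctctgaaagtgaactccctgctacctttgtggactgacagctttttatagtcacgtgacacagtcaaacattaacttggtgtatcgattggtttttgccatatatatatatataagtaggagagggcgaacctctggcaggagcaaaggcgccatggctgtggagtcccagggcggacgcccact
TIPARP: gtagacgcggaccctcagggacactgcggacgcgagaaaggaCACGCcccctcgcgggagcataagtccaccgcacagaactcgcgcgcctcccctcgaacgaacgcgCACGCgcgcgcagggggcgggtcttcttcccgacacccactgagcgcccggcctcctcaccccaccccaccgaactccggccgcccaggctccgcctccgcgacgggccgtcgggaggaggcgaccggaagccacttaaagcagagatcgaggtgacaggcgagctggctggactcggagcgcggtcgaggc
The UGT1A1 window held none of the 3 motifs on either strand.

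The labelled tissue was checked against markers of colon epithelium. Of 13 markers, 10 were above 3 fragments in each HT-29 library and 7 in each NCM460 library. Summed, they reached 6618 CPM for the HT-29 control, 3675 for HT-29 with SCS, 4468 for the NCM460 control and 2718 for NCM460 with SCS. The markers did not move alike between the HT-29 libraries. KRT8, KRT18, KRT19 and VIL1 were lower with SCS (VIL1 from 67.5 to 9.99 CPM), while KRT20 (58.2 to 127.3), LGALS4 (67.5 to 193.1), CDH1 (130.5 to 218.9), EPCAM (240.5 to 251.8), ELF3 (88.0 to 101.1) and CEACAM5, merged with CEACAM6 and other genes (4.89 to 39.5), were higher. KRT8 had the most fragments of the markers in the first 3 of these libraries, and KRT19 in the last. EPCAM, CDH1, KRT8, KRT18, KRT19 and ELF3 were present in all 4. KRT20, VIL1, LGALS4 and CEACAM5, which mark mature colon epithelium, were at 0 in both NCM460 libraries. The intestinal factor CDX2 was at 0 in both HT-29 libraries and had 14 and 12 fragments in the NCM460 libraries, while CDX1 and TFF3 were at 0 in all 4.

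Markers of other cell types were low. Of 9 hepatocyte markers 8 were at 0 in every library, and SERPINA1, the exception, had 486, 426, 1 and 0 fragments in the order HT-29 control, HT-29 with SCS, NCM460 control, NCM460 with SCS. SERPINA1 set the whole hepatocyte sum of 237.5, 177.3, 1.28 and 0 CPM. The 8 fibroblast markers summed to 2.93, 3.33, 27.0 and 25.9 CPM, led by COL1A1 in 3 libraries and by COL1A1 and PDGFRB alike in HT-29 with SCS, with COL1A2, COL3A1, DCN and LUM at 0 throughout. The 5 leukocyte markers summed to 3.91, 1.67, 0 and 0 CPM, all from ITGAM, and PTPRC was at 0 in all libraries. The 4 endothelial markers summed to 2.93, 1.67, 8.99 and 1.85 CPM, with no more than 6 fragments in any gene. Whether these differences bear on the values below was not tested. In bulk RNA, fewer cells of a kind and less RNA per cell cannot be told apart.

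In HT-29 cells the UGT1A locus had 418 fragments without SCS and 112 with it, and in NCM460 cells 5 without and 3 with it. As CPM these were 204.3 (185.2 to 224.9), 46.6 (38.4 to 56.1), 6.42 (2.08 to 15.0) and 2.77 (0.57 to 8.11). The HT-29 control was the highest library and its interval lay apart from the other 3, and HT-29 with SCS also lay above both NCM460 libraries. Deposited FPKM, a level per length, was 84.5, 19.1, 3.07 and 1.15 in the same order. The 4 UGT1A pseudogenes listed above 0 had between 0 and 4 fragments per library. UGT1A2P had the 4, in the HT-29 control.

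AHR (ENSG00000106546, chromosome 7 from 17298622 to 17346152) had 149, 206, 23 and 105 fragments in the same order of libraries. As CPM these were 72.8 (61.6 to 85.5), 85.7 (74.4 to 98.3), 29.5 (18.7 to 44.3) and 97.1 (79.4 to 117.5). The NCM460 control was low, and the other 3 libraries overlapped in their counting intervals. TIPARP, a feedback repressor of AHR, had 389, 513, 16 and 57 fragments. Its CPM was 190.1, 213.5, 20.5 and 52.7, high in both HT-29 libraries and low in the NCM460 control. NR1I2 was at 0 in all 4 libraries, where the limit of 3 fragments is 1.47, 1.25, 3.85 and 2.77 CPM. Its exact Poisson intervals end higher, at 1.80, 1.54, 4.74 and 3.41 CPM.

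Among the cytochromes, CYP1A1, the classical AHR target, had 3, 0, 2 and 3 fragments and so gave no fold in any comparison. CYP1B1, which oxidises polycyclic hydrocarbons and oestrogens, had 81, 144, 1 and 9 fragments, or 39.6, 59.9, 1.28 and 8.32 CPM. It shares its values with the antisense gene RMDN2-AS1 and is uncertain for that reason. CYP3A5, a drug-oxidising enzyme of gut and liver, had 85, 112, 1 and 0 fragments, or 41.5, 46.6, 1.28 and 0 CPM. Both CYP1B1 and CYP3A5 were high in HT-29 cells, and in NCM460 cells they were at or under 3 fragments except for CYP1B1 with SCS.

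Among the exporters, ABCC3, which carries glucuronides out through the basolateral membrane, had 642, 809, 27 and 29 fragments, or 313.8, 336.7, 34.7 and 26.8 CPM. ABCG2, the breast cancer resistance protein, had 42, 23, 3 and 0 fragments, or 20.5, 9.57, 3.85 and 0 CPM. ABCB1, P-glycoprotein, had 6, 13, 3 and 5 fragments, or 2.93, 5.41, 3.85 and 4.62 CPM, and its 4 counting intervals overlapped. ABCC3 was high in both HT-29 libraries, apart from both NCM460 libraries in its counting intervals. Of the 10 genes 8 were above 3 fragments in at least 1 library, CYP1A1 reached 3 at most, and NR1I2 was at 0.

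**Figure D2:**
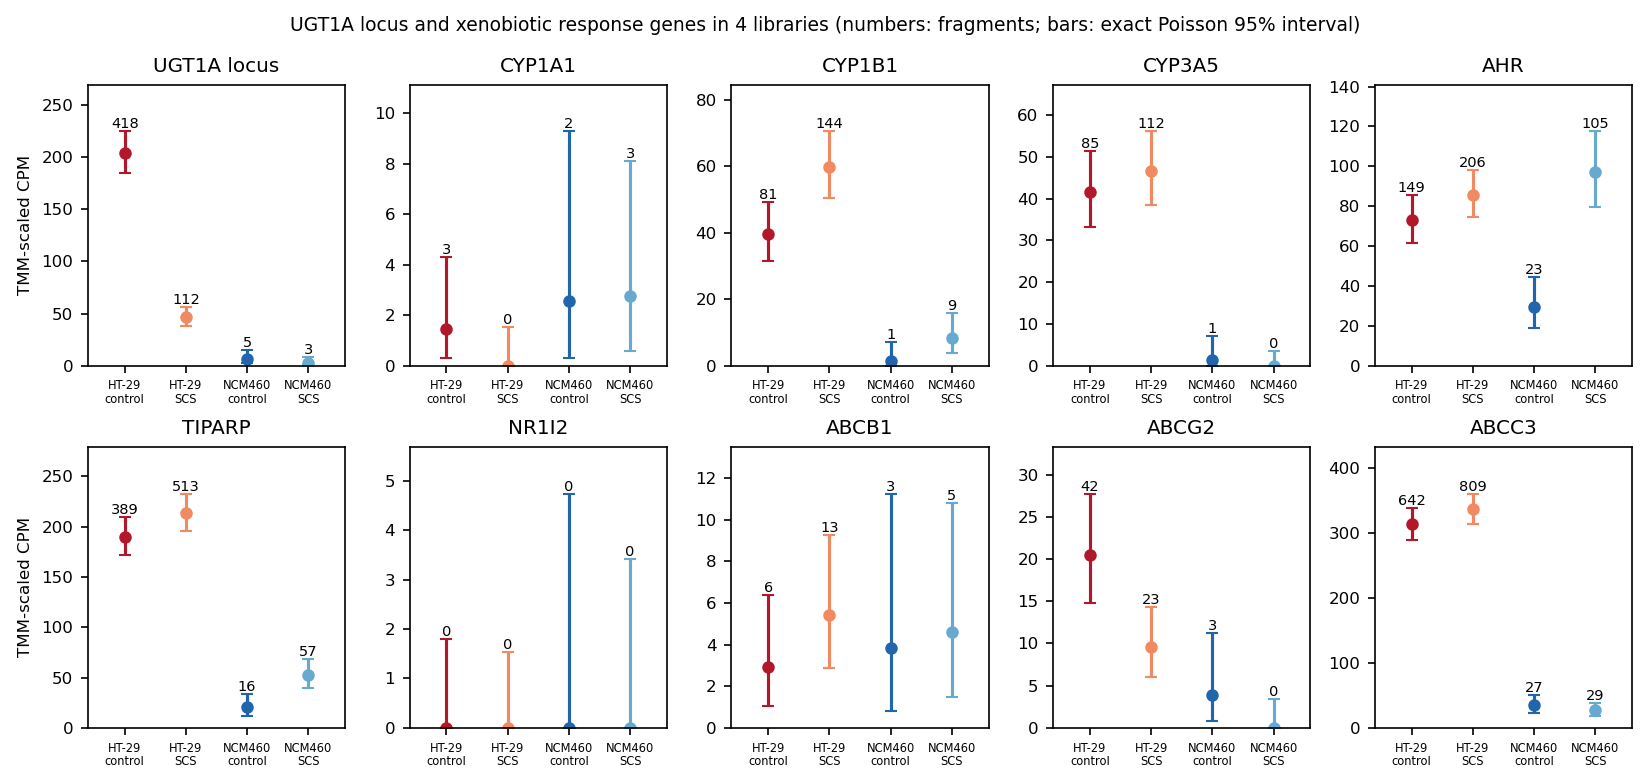
TMM-scaled CPM of each gene (vertical axis, linear, 1 scale per panel) in the 4 libraries, with exact Poisson 95% intervals as bars and the number of fragments above each point. The UGT1A locus falls from 418 to 112 fragments between the HT-29 libraries, and AHR and TIPARP are lowest in the NCM460 control.

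The order of levels between genes was read from deposited FPKM, with intervals that carry over the counting error of the fragments. Deposited FPKM did not always follow the fragments. ABCB1 in NCM460 had an FPKM of 9.29 from 3 fragments in the control and 0.97 from 5 with SCS. Such error is not in these intervals, so the order is a description within them only. In the HT-29 control the level of the UGT1A locus was first (84.5, 76.6 to 93.0), followed by ABCC3 (68.4), TIPARP (37.4), CYP3A5 (25.5), AHR (14.0) and CYP1B1 (9.86). AHR and CYP1B1 did not differ beyond their intervals, nor did ABCG2 and ABCB1, the next in order, or ABCB1 and CYP1A1. In HT-29 with SCS the FPKM level of ABCC3 was first (59.7) and that of the UGT1A locus followed those of TIPARP and CYP3A5 (19.1, 15.7 to 23.0), within the counting interval of CYP3A5 (21.7, 17.9 to 26.1). In NCM460 with SCS the FPKM level of AHR was first (25.5, 20.9 to 30.9), ahead of TIPARP (12.7) and ABCC3 (12.4), which overlapped. In the NCM460 control no neighbours in the order differed beyond their intervals, and AHR (13.3) and ABCC3 (12.5) stood at its head.

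SCS was compared with the control in HT-29 cells. The UGT1A locus was 4.32-fold lower with SCS, a log2 fold change of -2.11 (-2.45 to -1.83). ABCG2 was 2.05-fold lower, a log2 fold change of -1.03 (-1.90 to -0.33). CYP1B1 was higher, with a log2 fold change of 0.59 (0.20 to 1.01), just above the threshold. A locus was called when its fold exceeded 1.5 and its interval excluded no change, provided that the 2 libraries averaged 1 CPM or more. Of the 10 genes 8 reached that mean, and 1 was called higher and 2 lower. Over all 12168 loci compared, 31.7% were called, 16.8% higher and 14.8% lower. The median log2 fold change of the 8 was 0.16, against 0.07 over all loci. The call of CYP1B1 was lost with DESeq2's size factors (0.57), with nuclear totals (0.44), with a trend on GC content subtracted (0.51), after thinning the libraries to equal nuclear depth (0.08) and by FPKM (0.10), all as log2 fold changes. The call of ABCG2 was lost after the same thinning (-0.81). Thinning was 1 random draw of fragments, down to the 507692 nuclear fragments of the NCM460 control. A call can be lost through the fewer fragments alone.

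The other genes were not called in HT-29 cells. Log2 fold changes were 0.23 (-0.08 to 0.55) for AHR, 0.17 (-0.03 to 0.36) for TIPARP, 0.16 (-0.25 to 0.59) for CYP3A5, 0.72 (-0.61 to 2.57) for ABCB1 and 0.10 (-0.05 to 0.25) for ABCC3. The intervals of all 5 left out a fall as large as that of the UGT1A locus. Deposited FPKM pointed the other way for AHR, whose FPKM level was 14.0 in the control and 10.1 with SCS while its fragments numbered 149 and 206. TIPARP, CYP3A5 and ABCC3 likewise had lower FPKM with SCS (36.0 against 37.4, 21.7 against 25.5 and 59.7 against 68.4).

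In NCM460 cells AHR and TIPARP were higher with SCS. AHR was 3.13-fold higher, a log2 fold change of 1.65 (1.06 to 2.44), and TIPARP 2.42-fold higher, with 1.27 (0.54 to 2.26). Both were called, with no gene called lower, among 8 of the 10 genes that reached the mean of 1 CPM. Over all 12657 loci 29.1% were called, 15.3% higher and 13.7% lower. CYP1A1 and ABCG2 reached that mean without a fold, both being at or under 3 fragments. The 6 others had a median log2 fold change of 0.72, against 0.09 over loci above 3 fragments in a library, or 0.05 with loci at 0 set to their bound. With CYP1A1 and ABCG2 included at their values under the prior count, the median of the 8 was 0.12, against 0.03 over all loci compared. The log2 fold changes of all loci followed the GC content of their transcripts in this line, with a Spearman's rho of -0.64 across 12599 loci, which are no independent replicates. The same rho was -0.12 across 12106 loci for HT-29. The transcript of AHR holds 38.2% GC, where the median log2 fold change of all loci in NCM460 was 1.06, and that of TIPARP 42.8%, where the median was 0.71. With a smooth trend on GC content subtracted, neither was called, at 0.57 (-0.03 to 1.36) for AHR and 0.56 (-0.18 to 1.54) for TIPARP. The part of GC content in these values was otherwise not tested.

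The UGT1A locus lay at the limit of what the NCM460 libraries resolve. Its ratio of 3 to 5 fragments gave a log2 ratio of -1.21 with a counting interval from -3.90 to 1.15, which includes both no change and the fall seen in HT-29 cells. A difference of the UGT1A locus between the lines in its change with SCS was therefore not detectable at this depth. By FPKM, where a call rests on the fold alone, the locus was called lower from those same fragments. Its log2 fold change was then -1.34 and -0.92 with a pseudocount of 0.1 and 1. CYP1B1 went from 1 to 9 fragments, a log2 ratio of 2.70 (-0.16 to 8.15), and was called higher with totals or nuclear totals as the scaling. Without a condition on the interval CYP1B1 was also called higher, as by FPKM (1.16 and 0.745 with the same pseudocounts). ABCC3 gave -0.35 (-1.18 to 0.44) and ABCB1, from 3 to 5 fragments, a log2 ratio of 0.26 (-2.10 to 2.95). ABCB1 had FPKM levels of 9.29 in the control and 0.97 with SCS from those same fragments. CYP1A1, CYP3A5, ABCG2 and NR1I2 had 3 fragments or fewer in both libraries and gave no fold.

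**Figure D3:**
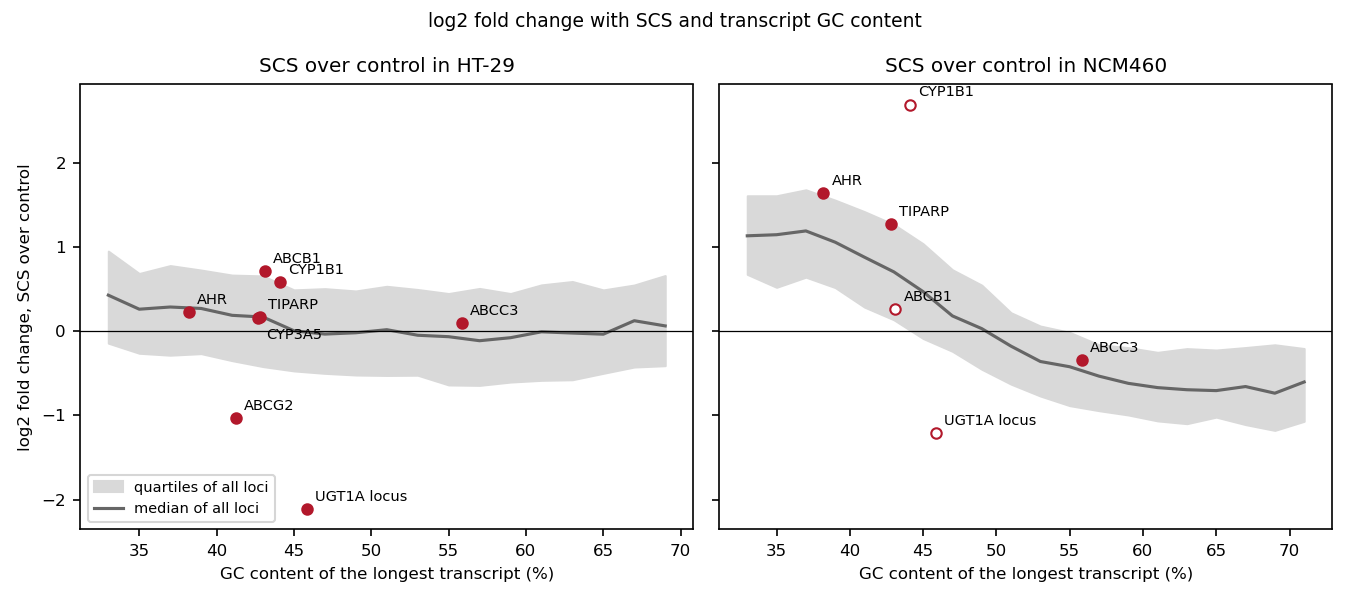
Log2 fold change with SCS (vertical axis) against the GC content of the longest transcript in percent (horizontal axis), in HT-29 at left and NCM460 at right. The grey line and band are the median and quartiles of all loci by GC content, and points are the genes described, open where a library had 3 fragments or fewer. In NCM460 the median falls from 1.06 at 38% to 40% GC to -0.62 at 58% to 60%, and the UGT1A locus in HT-29 lies at -2.11, below the band.

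The lines were then compared without SCS. HT-29 cells had more of the UGT1A locus, a log2 fold change of 4.71 (3.76 to 6.62), and more ABCC3, 3.13 (2.62 to 3.79), TIPARP, 3.12 (2.49 to 4.03), and AHR, 1.26 (0.66 to 2.0). For genes with 1 to 3 fragments in NCM460 the log2 ratio was 4.95 (2.43 to 10.27) for CYP1B1, 5.02 (2.5 to 10.34) for CYP3A5 and 2.41 (0.77 to 4.75) for ABCG2. Of 9 genes that reached the mean of 1 CPM, 7 were called higher in HT-29 and 0 lower. Over all 12691 loci 48.4% were called, 25.3% higher and 23.1% lower. CYP1A1 was the 1 of the 9 without a fold, and the 8 others had a median log2 fold change of 3.13, against 0.26 over loci above 3 fragments in a library, or 0.14 with loci at 0 set to their bound. The difference between the lines was among the values that chose the genes, so nothing is read from this count. ABCB1 was not called, at a log2 ratio of -0.39 (-2.62 to 2.23). In this comparison the log2 fold changes again followed GC content, with a rho of -0.51 across 12648 loci. With the trend subtracted AHR stood at -0.09 (-0.69 to 0.65) and ABCG2 at 0.99 (-0.30 to 3.68), neither called (ABCG2 was -0.24 by FPKM), and the UGT1A locus at 4.28 (3.33 to 6.19). By FPKM, AHR had nearly the same level in both controls (14.0 and 13.3).

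With SCS the lines were compared again. These comparisons share libraries with those above and are not independent of them. The UGT1A locus gave a log2 ratio of 4.07 (2.49 to 6.37) from 112 fragments in HT-29 and 3 in NCM460. ABCC3 stood at 3.59 (3.12 to 4.24), CYP1B1 at 2.69 (1.88 to 4.01) and TIPARP at 1.99 (1.62 to 2.44) as log2 fold changes. CYP3A5 was at least 16.8-fold higher and ABCG2 at least 3.45-fold higher in HT-29, against a floor of 3 fragments in the NCM460 library, where both were at 0. Such a bound leaves out the counting error of the other library, and the counting intervals of these log2 fold changes began at 3.75 and 1.37. AHR was not called, at a log2 fold change of -0.18 (-0.53 to 0.17), while its FPKM was 10.1 in HT-29 and 25.5 in NCM460, and ABCB1 stood at 0.18 (-1.35 to 2.07). Of 9 genes that reached the mean 6 were called higher and 0 lower, beside 46.6% of 13050 loci called, 24.2% higher and 22.4% lower. Without CYP1A1, which gave no fold, the median log2 fold change was 2.96, against 0.11 over loci above 3 fragments in a library. With loci at 0 set to their bound these were 2.34 and 0.06. Here rho with GC content was -0.15 across 12988 loci, and the 6 calls were also made with the trend subtracted.

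**Figure D4:**
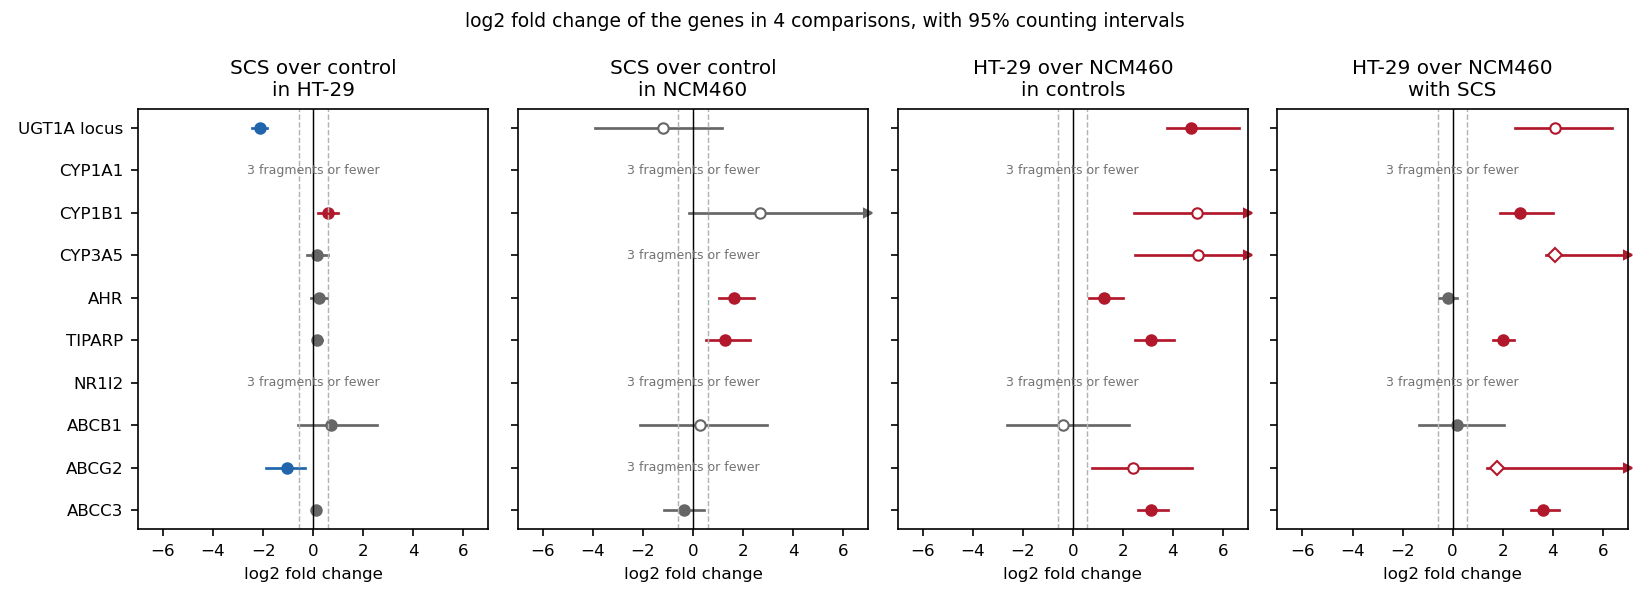
Log2 fold change (horizontal axis) of each gene in the 4 comparisons, with 95% counting intervals as lines and arrowheads where an interval runs past the axis. Red marks genes called higher, blue genes called lower, grey genes not called, open circles ratios with 1 to 3 fragments in a library, open diamonds bounds against 3 fragments, and dashed lines a fold of 1.5. The UGT1A locus lies at -2.11 in HT-29 with SCS and at 4.71 between the controls.

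Further genes of the same pathways were taken from 12 lists with 167 genes. Of these genes 47 were at 0 in all 4 libraries and another 31 never passed 3 fragments. The 120 genes above 0 formed 106 loci, 9 of the 10 genes described above among them. With SCS in HT-29 cells 25 of 71 list loci that reached the mean were called, 8 higher and 17 lower, beside the 31.7% of all loci. Their median log2 fold change was -0.21, against 0.07 over all loci compared. In NCM460 cells 17 of 79 were called, 8 higher and 9 lower, beside 29.1%, with a median of -0.15 against 0.03. Over loci above 3 fragments in a library, with those at 0 set to their bound, the medians were -0.20 against 0.07 in HT-29 and -0.04 against 0.05 in NCM460. HT-29 against NCM460 gave 49 of 78 in the controls, 28 higher and 21 lower, and 44 of 80 with SCS, 23 higher and 21 lower, beside 48.4% and 46.6% of all loci. Those medians were 0.03 and -0.01, against 0.10 and 0.05 over all loci. With loci at 0 set to their bound, the first became -0.10, and over loci above 3 fragments in a library they were then 0.34 and 0.14, against 0.14 and 0.06.

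How the libraries are scaled moved how many of these calls were higher or lower. With totals alone the median of all loci moved by 0.25 in HT-29, 0.53 in NCM460, 0.95 between the controls and 0.58 between the lines with SCS, on the log2 scale. With nuclear totals it moved by -0.14, 0.14 and 0.28 in the first 3. List loci called with SCS were then 12 higher and 10 lower (totals) or 6 and 22 (nuclear totals) in HT-29, and 23 and 2 or 12 and 7 in NCM460. Between the lines they were 37 higher and 5 lower or 32 and 15 in the controls, and 32 and 13 with SCS by totals. Over all loci the share of higher calls went from 53.2% to 73.8% and 39.5% in HT-29, from 52.7% to 94.1% and 65.9% in NCM460, and from 52.3% to 85.1% and 65.1% between the controls, and with SCS from 51.9% to 76.5% by totals. Subtracting the GC trend gave 3 higher and 6 lower list loci in NCM460. The direction of the UGT1A locus did not depend on these scalings in HT-29 cells or between the lines.

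In the AHR list, 2 of 8 loci were called in HT-29 cells with SCS, beside 31.7% of all loci. ARNT, the partner of AHR, went from 35 to 84 fragments, and its log2 fold change was 0.99 (0.45 to 1.64), but it was not called by FPKM (0.12) or after thinning (0.82). PTGES3, a chaperone that holds AHR in the cytoplasm with HSP90, went from 493 to 313, with -0.88 (-1.10 to -0.68). In NCM460 cells 3 of 9 were called, all higher, AHR and TIPARP among them, beside 29.1% of all loci, and this was 1 of 9 with the GC trend subtracted and 6 of 9 with totals alone. HSP90AA1, the chaperone itself, went from 119 to 816 fragments with SCS, with 2.29 (2.02 to 2.59) as log2 fold change, and was also called with the GC trend subtracted (1.85). ARNT2, merged with MIR5572, had 8 fragments in the NCM460 control and 0 in the HT-29 control, where it was at least 7.01-fold lower with 3 fragments as the floor, and had a counting interval of the log2 fold change that ended at -2.16. Of the AHR target enzymes, 2 of 7 loci were called in HT-29 cells, CYP1B1 and UGT1A, and 1 of 8 in NCM460 cells, TIPARP, beside 31.7% and 29.1% of all loci. With DESeq2's size factors 1 of 7 was called in HT-29 cells. The NCM460 count was 0 of 8 with the GC trend subtracted, 2 of 8 with nuclear totals and 3 of 7 with totals alone. Between the controls ALDH3A1, an aldehyde dehydrogenase, had 26 fragments in HT-29 and 1 in NCM460, and CYP2S1 had 11 and 25, a log2 fold change of -2.30 (-3.75 to -1.50).

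Among the PXR and CAR receptors and their partners, 3 of 6 loci were called in HT-29 cells with SCS, beside 31.7% of all loci. The coactivator NCOA1 had a log2 fold change of 0.80 (0.21 to 1.48), which by FPKM was -0.31, and it was not called after thinning (0.85). HNF4A, a factor of gut and liver epithelium, went from 18 to 7 fragments, -1.35 (-3.10 to -0.27), and was not called with totals alone (-1.12) or after thinning (-0.31). RXRA, which pairs with PXR and was named after its value was seen, went from 190 to 113. In NCM460 cells RXRA went from 46 to 17, -1.78 (-2.81 to -1.08), and the corepressor NCOR1 from 16 to 57, 1.27 (0.54 to 2.26), or 0.57 and not called by FPKM with a pseudocount of 1. Of the PXR and CAR targets 2 of 8 loci were called in HT-29 cells and 2 of 6 in NCM460 cells, near the 31.7% and 29.1% of all loci. POR, the electron donor of microsomal cytochromes P450, merged with MIR4651, was called higher in HT-29 cells, from 80 to 148 fragments, with 0.64 (0.25 to 1.07), though not by FPKM (0.48). In NCM460 cells ALAS1, the first enzyme of haem synthesis, went from 53 to 37 fragments, -0.95 (-1.64 to -0.36), or -0.28 and not called with totals alone. ABCC2, an apical exporter of conjugates, was low in HT-29, with 2 and 1 fragments, and had 12 and 28 in NCM460.

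Of 23 family 1 to 3 cytochromes P450, 9 were at 0 in every library and 8 more never passed 3 fragments. CYP1B1 was the 1 locus of 7 called in HT-29 cells with SCS, and 0 of 5 were called in NCM460 cells, beside 31.7% and 29.1% of all loci. That 1 call was lost under the alternatives given for CYP1B1 above. Among other phase I enzymes 5 of 10 loci were called in HT-29 cells, beside 31.7% of all loci. With totals alone they were 3 higher and 0 lower. NQO2, a quinone reductase, merged with LINC01011, went from 21 to 63 fragments, 1.28 (0.62 to 2.14), and was not called by FPKM (0.41) or after thinning (0.75). MAOA, a monoamine oxidase, went from 16 to 7, -1.19 (-2.95 to -0.06), and was not called with totals alone (-0.96), after thinning (-0.17) or by FPKM with a pseudocount of 1 (-0.51). In NCM460 cells 2 of 14 were called, both lower, beside 29.1% of all loci. Nuclear totals gave 1 higher and 1 lower, totals alone 3 higher, and the GC trend subtracted 0 of 14. The related MAOB had 34 fragments in the NCM460 control and 49 with SCS, against 3 and 0 in HT-29. CYB5A, an electron donor, had 27 fragments in the HT-29 control and 0 in the NCM460 control, at least 3.43-fold higher in HT-29 against the same floor, with a counting interval of the log2 fold change from 1.38.

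The glucuronidation list adds the enzymes that supply the sugar. Of its 24 genes 12 were at 0 in all libraries, and the 12 others formed 4 loci, of which the UGT1A locus was the 1 called in HT-29 cells with SCS, beside 31.7% of all loci. With totals alone another of the 4 was called higher. UGDH, which makes UDP-glucuronic acid, had 295 fragments in the HT-29 control and 494 with SCS, against 5 and 20 in NCM460. Its log2 fold change between the lines was 4.22 (3.25 to 6.12) in the controls and 3.40 (2.83 to 4.2) with SCS. In NCM460 cells 3 of 4 loci were called higher with SCS, 2 of 4 with DESeq2's size factors, beside 15.3% of all loci higher. UGP2, which makes UDP-glucose, went from 5 to 21 fragments, 1.33 (0.15 to 3.36). UGDH and UGT8, named after their values were seen, went from 5 to 20 and from 6 to 24. With the GC trend subtracted UGP2 stood at 0.29 and none of the 3 was called, and by FPKM UGP2 stood at 0.33 and was not called.

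Other conjugating enzymes in HT-29 cells with SCS were counted beside the 31.7% of all loci called, 14.8% lower. Sulfotransferases and their supply had 3 of 4 loci called, all lower (1 of 5 with totals alone). SULT1A1 stood at -1.07 (-2.22 to -0.20) from 27 to 14 fragments, and was not called with totals alone (-0.82) or after thinning (-0.79). Glutathione S-transferases had 4 of 10 called, all lower (3 lower and 1 higher with totals alone). MGST2 stood at -1.60 (-3.09 to -0.69) from 27 to 9, and was not called after thinning (-0.88). Of methyl and acetyl transferases 2 of 6 were called, 1 higher and 1 lower. TPMT, which methylates thiopurine drugs, went from 22 to 59 fragments, 1.13 (0.46 to 1.97). In NCM460 cells the same lists had 0 of 7, 2 of 13 and 1 of 5 loci called, all lower, beside 29.1% of all loci. With totals alone they had 2 of 6, 1 of 12 and 1 of 5 called, all higher. MGST3 stood at -1.10 (-1.93 to -0.43) in NCM460 cells, or at -0.44 and not called with totals alone. Between the controls NNMT, merged with AP002518.1, had 50 fragments in HT-29 and 0 in NCM460, and MGST1 90 and 7.

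Of the ABC exporters, 2 of 8 loci were called in HT-29 cells with SCS, both lower, beside 31.7% of all loci (14.8% lower), and 1 was also called higher with totals alone. The 2 were ABCG2 and ABCC4, which went from 84 to 46 fragments, -1.07 (-1.65 to -0.57), and was not called after thinning (-0.70). In NCM460 cells 0 of 9 were called, beside 29.1% of all loci, against 3 higher with totals alone. Of the uptake transporters 2 of 6 were called in HT-29 cells and 2 of 5 in NCM460 cells, beside the same 31.7% and 29.1%. SLC22A5, a carnitine carrier, went from 11 to 30 fragments in HT-29, 1.09 (0.18 to 2.36), not called after thinning (1.23), and from 2 to 16 in NCM460, a log2 ratio of 2.53 (0.44 to 5.69). SLCO4A1, an organic anion carrier, went from 53 to 17 in HT-29, -1.75 (-2.75 to -1.06), and from 62 to 37 in NCM460, -1.17 (-1.85 to -0.61). With the GC trend subtracted its NCM460 value was -0.53 and with totals alone -0.50, neither called.

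Both comparisons of the lines gave calls in all 12 lists. In the controls, beside 48.4% of all loci, the loci called were 5 of 9 in the AHR list, 5 of 8 AHR target enzymes, 4 of 6 PXR and CAR partners, 6 of 8 of their targets, 3 of 7 cytochromes P450, 10 of 14 other phase I enzymes, 4 of 4 glucuronidation loci, 1 of 5 sulfotransferases, 8 of 11 glutathione S-transferases, 6 of 7 methyl and acetyl transferases, 5 of 9 exporters and 1 of 4 uptake transporters. All 4 glucuronidation loci were higher in HT-29, also under every scaling tried, while 7 of the 10 other phase I calls were lower there, against 2 of 6 with totals alone. With totals alone 4 of 5 sulfotransferases and 0 of 3 uptake transporters were called. Glutathione S-transferases were then 3 of 11, with 3 higher and 0 lower, against 3 and 5. With the GC trend subtracted 2 of 9 exporters were called. With SCS the exporter list gave 3 higher and 3 lower of 8, beside 46.6% of all loci, and ABCC10 was the named rise beside the 10 genes, at 1.45 (0.20 to 3.68), not called after thinning (0.74). Further named values with SCS were CBR1, with 40 fragments in HT-29 and 2 in NCM460, SULT2B1, with 37 and 1, PAPSS1, with 34 and 40, and GSTO2, with 26 and 49. In the controls GSTZ1 had 11 fragments in HT-29 and 17 in NCM460, ABCC4 84 and 14, and INMT, merged with 4 further genes, 8 and 10. GSTZ1 (-0.81) and INMT (-0.51) were not called lower with totals alone, nor INMT with nuclear totals, and ABCC4 was not called higher with the GC trend subtracted (0.31) or by FPKM (-0.03).

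**Figure D5:**
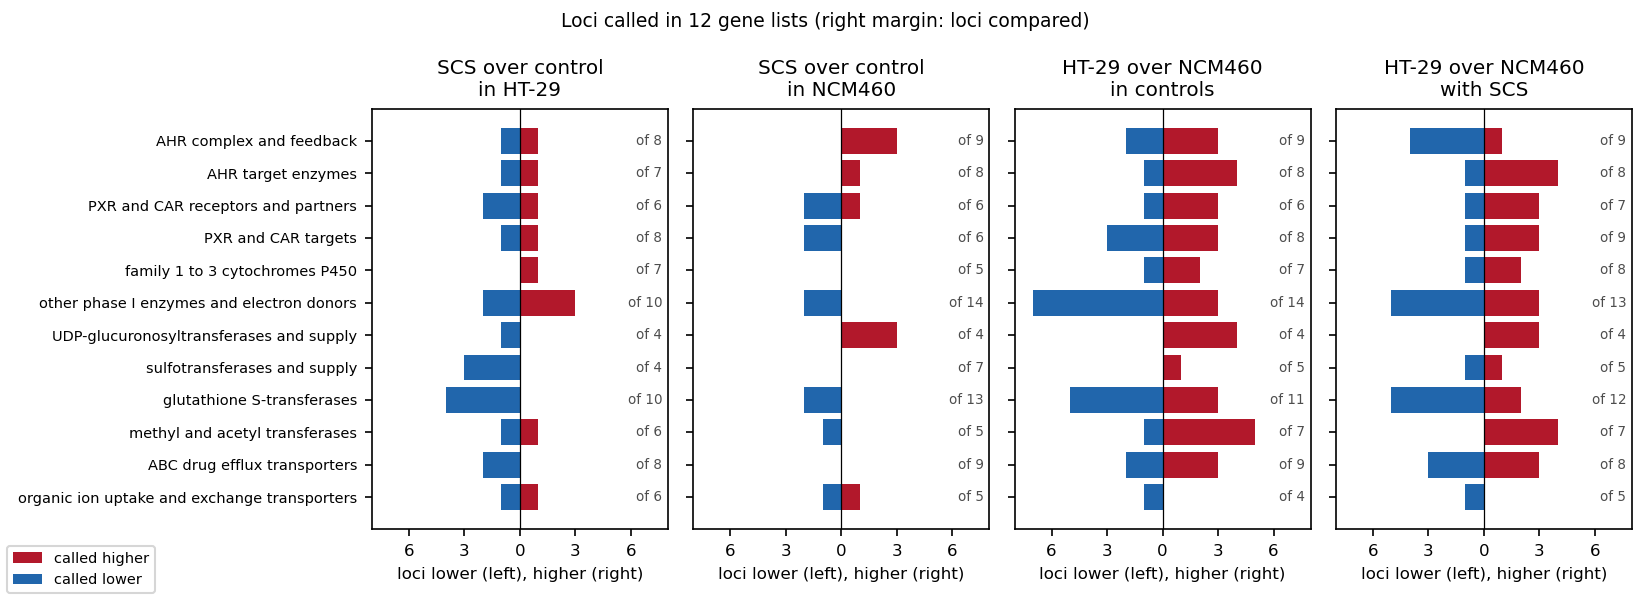
Number of loci called higher (red, to the right) and lower (blue, to the left) in each of 12 gene lists for the 4 comparisons, with the number of loci compared at the right margin. Lists overlap, and the UGT1A locus is in 3 of them. In HT-29 with SCS the 4 called glutathione S-transferase loci and the 3 called sulfotransferase loci are all lower, while with totals alone 1 glutathione S-transferase locus was higher.

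The loci whose pattern over the 4 libraries lay nearest to that of the UGT1A locus were sought among 7798 others with a mean of at least 10 CPM, by Euclidean distance of centred log2 CPM. Of the 5 nearest, 4 are given here: TGFBI (0.68), HCAR1 (0.69), TRNP1 (0.73) and FOXQ1 (0.76). TGFBI, a matrix protein, had 81 fragments in HT-29 cells without SCS, 24 with it and 0 in both NCM460 libraries. HCAR1, a lactate receptor, had 97, 28, 0 and 0. TRNP1 had 255, 122, 6 and 3, and FOXQ1, a forkhead factor, 70, 25, 0 and 0. Their likeness to the UGT1A locus is what chose them.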

How the data were processed

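RNA-seq of 4 libraries was analysed from 1 deposited table. The submitters' processing notes name bcl2fastq 2.17.1.14, cutadapt 1.9.1, Bowtie2, HTSeq 0.6.1 and the build hg19, while the study's methods name Cuffdiff, and the coordinates in the table are those of GRCh38. The count columns the authors deposited are a signal, gene counts divided by a size factor per library, where whole counts had been assumed. The FPKM values were computed and deposited by the authors. Within a tolerance of 0.1, between 99.9% and 100% of the values above 0 were whole multiples of the worth of 1 fragment (0.686, 0.577, 2.04 and 1.33). Entries without a gene name (26) were left out, with at most 0.0352% of fragments. Entries with identical values were merged into 18650 loci, of which 1812 hold more than 1 gene and are uncertain.

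Fragments were scaled by TMM factors of edgeR 4.0.16 in R 4.3.3 (1.24, 1.50, 0.578 and 0.935), and log2 fold changes were taken with a prior count of 2. Each condition had a single library, so no count test was run and no p-value is given. Intervals of a ratio are exact (Clopper-Pearson), taken over the fragments of both libraries, and those of 1 library from the exact Poisson method. With 1 to 3 fragments in a library the ratio without a prior is given, and at 0 a bound against 3 fragments. GC content came from GENCODE release 29, found for 98.9% of loci. The procedure was tested on simulated Poisson fragments scaled by totals. These had no TMM factors, GC trend or spread between libraries beyond counting, so that test does not cover them. Named were the 10 genes, every UGT1A gene, the largest called rise and fall outside the 10 genes per list and comparison at a mean of at least 5 CPM, the 5 nearest loci and the markers; 3 loci so named are not reported here, though counts over lists include those listed. The genes and lists were chosen with earlier results of these data known. The alternatives were DESeq2 1.42.0 size factors, totals or nuclear totals only, a prior count of 0.5, no filter, a mean of at least 5 CPM, a fold of 2, no condition on the interval, thinning to equal nuclear depth, a lowess trend on GC content (span 0.3) subtracted, and ratios of FPKM with a pseudocount of 0.1 or 1. Ratios of FPKM had no interval, so a call by FPKM required the fold alone.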

Additional observations from a re-analysis of the deposited data

Results flagged for a closer look

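POR, listed together with MIR4651, was called in opposite directions with SCS in the 2 lines. It had 80 fragments in the HT-29 control and 148 with SCS, a log2 fold change of 0.64, and 67 and 52 in NCM460 cells, a log2 fold change of -0.81. The difference of 1.46 on the log2 scale was not tested, since each line had 1 library per condition. With the GC trend subtracted the NCM460 value was -0.17 and with totals alone -0.14, neither called, and with nuclear totals the HT-29 value of 0.50 was not called.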

How the results depend on the processing

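Of 664 values of named genes recomputed under 8 alternatives, 573 stayed within the main counting interval, 82 lay outside it and 9 changed sign from a called value. Those 9 were all in 2 comparisons. With SCS in HT-29 cells NCOA1 stood at -0.31 and -0.26 by FPKM with a pseudocount of 0.1 and 1. Between the controls, FPKM gave -0.24 and -0.20 for ABCG2, -0.03 and -0.02 for ABCC4 and -0.02 and -0.02 for HSP90AA1. The GC trend gave -0.09 for AHR. The UGT1A locus stayed lower with SCS in HT-29 cells and was called under all 12 alternatives. No paired analysis was possible because each condition had 1 library, so each comparison set 1 library against 1.

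Of the 10 genes, 1 was called with SCS in HT-29 after thinning, against 3. In NCM460 cells 5 were called with no condition on the interval, 1 with the GC trend, 7 and 6 by FPKM with a pseudocount of 0.1 and 1, against 2. The 1 under the GC trend was ABCG2, at 3 and 0 fragments, which gives no fold. Of the list loci in HT-29 cells 12 were called at a fold of 2 and 13 after thinning, against 25. In NCM460 cells 39 were called with no condition on the interval, 9 with the GC trend, 57 and 45 by FPKM, against 17. All counts by FPKM, for the 10 genes too, rest on the fold alone. They are therefore not made by the same rule as the main counts. Between the lines, the counts of the 10 genes and of all list loci together stayed within 1.5 times the main count under all 12 alternatives. Single lists moved further. In the controls glutathione S-transferases had 8 of 11 loci called, against 3 of 11 with totals alone. A fold of 2 can only lower a count of calls, and dropping the condition on the interval can only raise it. Thinning leaves fewer fragments and so wider counting intervals. What else lay behind these shifts was not tested. Depth limits what NCM460 libraries show for genes near 3 fragments.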
